A study of Mus musculus with 6 samples.

Results

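The genes of 9 transcription factors that establish and maintain macrophage identity, Spi1, Runx1, Cebpa, Cebpb, Cebpd, Maf, Bhlhe40, Bhlhe41 and Mef2c, were examined in macrophages of the healing mouse infarct. They were chosen by gene symbol, and each matched a single row among the 54532 genes of the deposited count table. All 9 passed the filter on low counts, which kept 14522 genes. The table assigns a transcription factor family to 1469 genes, and 8 of the 9 factors are among them (Cebpd carries no family entry).

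The 6 RNA-seq libraries came from hearts of 12-week-old C57BL/6 mice, 7 days after a non-reperfused infarct was produced by tying off the left anterior descending coronary artery. The control group consisted of 3 ITGA5 fl/fl mice, in which both alleles of the integrin α5 gene are floxed and no Cre recombinase is present. The other group consisted of 3 Myα5KO mice, which carry the same floxed alleles together with LyzM-Cre. This Cre is expressed from the lysozyme M locus, so it acts in macrophages and also in other myeloid cells, and the comparison contrasts a Cre-carrying group with Cre-negative littermates. All hearts were infarcted, and each library was prepared from Ly6G-, CD11b+ cells obtained from a single heart with magnetic beads. The comparison asks which genes respond in these cells when the α5 integrin chain is missing.

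Lineage-determining factors bind enhancers together and keep them accessible, and signal-dependent factors then act on the enhancers they opened. PU.1, the product of Spi1, acts with C/EBP factors in myeloid progenitors and macrophages, RUNX1 opens the Spi1 locus during the emergence of blood cells, and MAF favors differentiation over self-renewal. BHLHE40 and BHLHE41 are related repressors that support macrophage proliferation, and MEF2C is a MADS-box factor that guides progenitors between monocytic and granulocytic fates.

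Several of these factors belong to families with similar DNA-binding regions, which could matter for how reads were assigned to each gene. The most similar 60 bases of coding sequence are shown for 2 pairs, from the GENCODE M21 transcripts on GRCm38, with the bases that differ within a pair in capitals. All 4 stretches lie within a single coding exon.

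Bhlhe40, chr6:108661541-108661600, plus strand: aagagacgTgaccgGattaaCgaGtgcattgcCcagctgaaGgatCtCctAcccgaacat
Bhlhe41, chr6:145864588-145864647, minus strand: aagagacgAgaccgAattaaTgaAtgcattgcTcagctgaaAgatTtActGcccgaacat
Cebpb, chr2:167689702-167689761, plus strand: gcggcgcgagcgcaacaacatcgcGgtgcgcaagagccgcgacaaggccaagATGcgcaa
Cebpd, chr16:15887912-15887971, plus strand: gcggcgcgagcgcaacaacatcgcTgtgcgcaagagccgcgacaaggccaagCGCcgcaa

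In these windows Bhlhe40 and Bhlhe41 differed at 9 bases and Cebpb and Cebpd at 4. Runs of 50 identical bases were then sought across all annotated transcripts, and both pairs shared 0 of them. A read with 50 or more exactly matching bases therefore fits the transcripts of only 1 gene of a pair. The counting of reads that align to more than 1 gene is not stated in the sources used here.

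The factors differed widely in abundance (plot of FPKM by library). FPKM, the authors' read number divided by gene length and by a scaling constant of each library, allows levels of different genes to be compared. Cebpb, which encodes the inflammatory factor C/EBPβ, had the highest level at 600.5 FPKM on average over the 6 libraries (range 502 to 655). It ranked 2 among the 867 tested genes with a factor family and 56 among all 14522 tested genes. Spi1 followed with 160.5 FPKM (154 to 168) and Cebpa, which encodes the myeloid differentiation factor C/EBPα, with 159 FPKM (144 to 174). The ranges of Spi1 and Cebpa overlapped, so their order is not resolved. Bhlhe40 had 84.7 FPKM (70.2 to 98.9), Maf 23.1 FPKM (19.2 to 27.2) and Runx1 15.5 FPKM (14.1 to 16.4). Cebpd had 7.88 FPKM (6.43 to 10.9) and Mef2c 7.85 FPKM (7.08 to 8.65), again with overlapping ranges. Bhlhe41 was the lowest at 5.26 FPKM (4.74 to 6.06). Apart from the Spi1 with Cebpa and the Cebpd with Mef2c neighbors, the ranges of adjacent factors did not overlap.

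**Figure D1:**
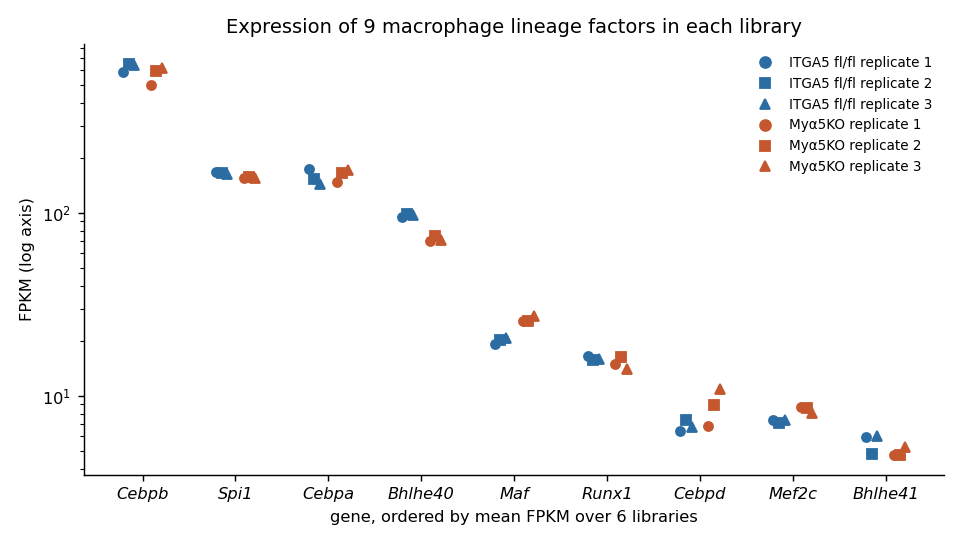
FPKM (log axis) of the 9 factors in each of the 6 libraries, ordered by their mean, with ITGA5 fl/fl libraries in blue, Myα5KO libraries in orange and symbols for the replicate number. Cebpb lies above 500 FPKM in every library, and Cebpd, Mef2c and Bhlhe41 lie near or below 10 FPKM.

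Loss of integrin α5 was accompanied by higher Maf and Mef2c and lower Bhlhe40. Expression of the other 6 factors, including Spi1, Runx1 and all 3 C/EBP genes, did not pass the test. Thus 3 of 9 factors (33.3%) were called at an adjusted p of 0.05 or less in the edgeR quasi-likelihood test, against 8.75% of all 14522 genes tested. The 2 factors called higher stand against 3.56% of all tested genes called higher, and the 1 factor called lower against 5.19% called lower. Among the 867 tested genes with a factor family, 37 (4.27%) were called higher and 62 (7.15%) lower. With scaling by library size alone, 70.1% of all calls were higher, against 40.7% in the main scaling, and 4 factors were called, since Cebpd joined the others (adjusted p = 0.0460 in edgeR). The calls of Maf and Bhlhe40 held under all 17 alternative settings, whereas that of Mef2c was lost under 15 of them. The median log2 fold change of the 9 factors was -0.08, with 4 above and 5 below 0, and the median over all tested genes was 0.01. P-values refer to the spread between individual hearts (n = 3 per group), with the spread of each gene moderated by that of the other genes tested. In bulk RNA, fewer cells of a type and less RNA per cell cannot be told apart.

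**Figure D2:**
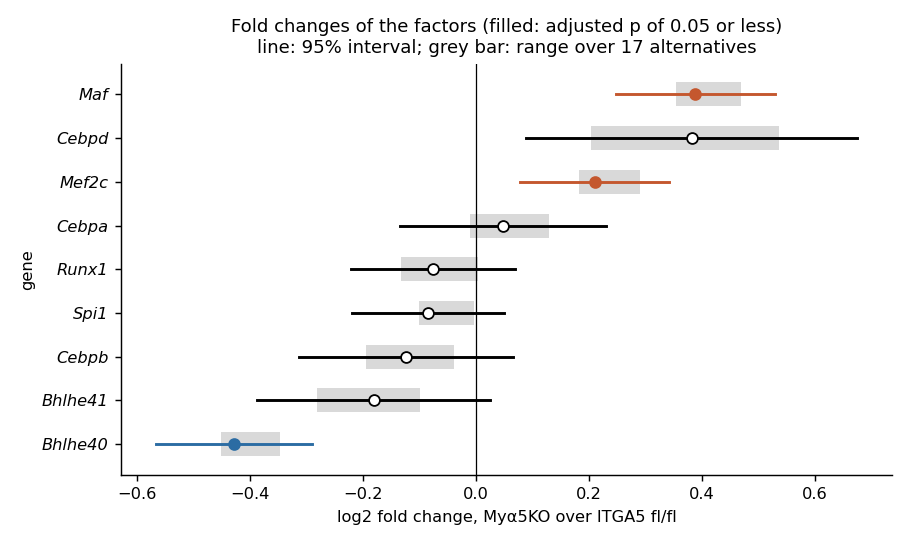
Log2 fold change of each factor (Myα5KO over ITGA5 fl/fl) as a point with its 95% interval from the edgeR fit, filled where the adjusted p was 0.05 or less, over a grey bar that spans the values under 17 alternative settings. Maf and Bhlhe40 lie on opposite sides of 0 with intervals clear of it, and the intervals of 5 factors cross 0.

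Spi1 (ENSMUSG00000002111, GRCm38 chr2:91082390-91115756, plus strand), the gene of the ETS factor PU.1, had counts of 6776, 7666 and 7718 in control libraries and 7833, 7951 and 8067 in Myα5KO libraries. After scaling, these corresponded to 454, 450 and 439 CPM (counts scaled to a common library size) in controls and 417, 425 and 424 CPM in Myα5KO macrophages. All Myα5KO libraries were thus slightly below all controls. The log2 fold change of -0.09 (SE 0.06, 95% interval -0.22 to 0.05) did not pass the test (edgeR adjusted p = 0.453). Groups that do not overlap in this direction were frequent, at 13.8% of all tested genes, and in the opposite direction at 14.9%. Of the 9 factors, 2 were separated with higher values in Myα5KO (Maf and Mef2c), 2 with lower values (Spi1 and Bhlhe40), and 5 overlapped.

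Runx1 (ENSMUSG00000022952, chr16:92601466-92826149, minus strand) had 198, 189 and 192 CPM in control and 180.1, 196 and 173 CPM in Myα5KO macrophages, with overlapping groups. RUNX1 is the core-binding factor required for definitive hematopoiesis, and its partner CBFβ stabilizes its binding to DNA. For Runx1 the log2 fold change was -0.08 (SE 0.07, 95% interval -0.22 to 0.07, edgeR adjusted p = 0.541). Cbfb, the gene of the partner, had a log2 fold change of -0.01 (SE 0.07, adjusted p = 0.932).

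Cebpa (ENSMUSG00000034957, chr7:35119293-35121928, plus strand) had 460, 405 and 381 CPM in control and 390, 436 and 462 CPM in Myα5KO libraries. The groups spanned nearly the same range, and their difference on the log2 scale was 0.05 (SE 0.08, 95% interval -0.13 to 0.23, edgeR adjusted p = 0.785).

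Cebpb (ENSMUSG00000056501, chr2:167688915-167690418, plus strand) had 886, 993 and 966 CPM in control and 757, 900 and 952 CPM in Myα5KO libraries. Its gene has a single annotated transcript with 1 exon. The groups overlapped, and the log2 fold change was -0.12 (SE 0.09, 95% interval -0.31 to 0.06, edgeR adjusted p = 0.430). Cebpb shares 312 exon bases with Tmem189, annotated on the opposite strand. Over its whole gene, Tmem189 had 3948 to 4912 counts per library, at most 31.1% of the Cebpb count of the same library. It was called lower in the knockouts (log2 fold change -0.32, SE 0.07, adjusted p = 0.0102 in edgeR). When ITGA5 fl/fl replicate 2 was left out, Tmem189 had a log2 fold change of -0.29 and an adjusted p of 0.0622. The sources used here do not state whether counting used strand, so reads in the shared bases cannot be attributed to either gene.

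Cebpd (ENSMUSG00000071637, chr16:15887286-15891031, plus strand), the gene of the acute-phase factor C/EBPδ, was the most variable of the 9 factors in Myα5KO macrophages. Its levels were 24.1, 28.0 and 25.3 CPM in control and 25.8, 33.7 and 41.4 CPM in Myα5KO libraries, so that Myα5KO replicate 1 lay within the control range. Its log2 fold change of 0.38 was nearly as large as that of Maf, but its error was larger (SE 0.14, 95% interval 0.09 to 0.68) and it did not pass the test (edgeR adjusted p = 0.106, unadjusted p = 0.0147). Without Myα5KO replicate 1 it was 0.54 with an adjusted p of 0.00744, and without Myα5KO replicate 3 it was 0.20 with an adjusted p of 0.334. Cebpd shares 562 exon bases with Spidr on the opposite strand, whose 257 to 395 counts per library reached up to 81.6% of the Cebpd count of the same library. These are counts of the whole Spidr gene, and the part that falls in the shared bases is not known. Spidr differed by 0.20 on the log2 scale (SE 0.10, adjusted p = 0.256 in edgeR). Genes annotated across Cebpa, Maf, Bhlhe40, Bhlhe41 and Runx1 on the opposite strand held at most 5.83% of the count of the factor in the same library.

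The balance between factors of this family was read from ratios within each library, which do not depend on scaling between libraries. The ratio of Cebpb to Cebpa FPKM was 3.38, 4.30 and 4.44 in control and 3.40, 3.62 and 3.61 in Myα5KO libraries. The ratio of Cebpa to Spi1 FPKM was 1.04, 0.919 and 0.888 in control and 0.957, 1.05 and 1.11 in Myα5KO libraries. Both ratios overlapped between the groups.

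Maf (ENSMUSG00000055435, chr8:115682942-115707794, minus strand), which encodes the large MAF factor c-Maf, rose in Myα5KO macrophages. Its counts were 2370, 2856 and 3019 in control and 3977, 3981 and 4332 in Myα5KO libraries. The levels were 159, 168 and 172 CPM in controls (166 ± 6.63, SD, n = 3) and 212, 213 and 228 CPM in Myα5KO macrophages (217.5 ± 8.93, SD, n = 3). Every Myα5KO library exceeded every control. Its log2 fold change of 0.39 (SE 0.07, 95% interval 0.25 to 0.53) corresponds to 131% of the control level (edgeR adjusted p = 0.00296). Among the 37 factor genes called higher, Maf ranked 24 by the size of its change and 7 by its p-value. Under all 17 alternative settings the call was kept, with log2 fold changes of 0.35 to 0.47.

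Bhlhe40 (ENSMUSG00000030103, chr6:108660629-108666925, plus strand) fell in Myα5KO macrophages. Counts were 6707, 7992 and 8089 in control and 6218, 6570 and 6513 in Myα5KO libraries, which corresponds to 449.6, 469 and 460.3 CPM in controls (459.8 ± 9.95, SD, n = 3) and 331, 352 and 342 CPM in Myα5KO macrophages (342 ± 10.3, SD, n = 3). All Myα5KO libraries lay well below all controls. The log2 fold change of -0.43 (SE 0.06, 95% interval -0.57 to -0.29) left 74.3% of the control level (edgeR adjusted p = 0.00143). Of the 62 factor genes called lower, Bhlhe40 ranked 28 by size and 8 by p-value. The call was kept under all 17 alternative settings, with log2 fold changes of -0.45 to -0.35.

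Bhlhe41 (ENSMUSG00000030256, chr6:145858243-145865558, minus strand), the paralog of Bhlhe40, had 40.2, 32.4 and 40.9 CPM in control and 31.9, 32.1 and 36.1 CPM in Myα5KO libraries. The groups overlapped, and the log2 fold change of -0.18 (SE 0.10, 95% interval -0.39 to 0.03) did not pass the test (edgeR adjusted p = 0.283). In FPKM, Bhlhe41 amounted to 0.0626, 0.0484 and 0.0621 of Bhlhe40 in control and to 0.0676, 0.0638 and 0.0737 of it in Myα5KO libraries. Every Myα5KO ratio lay above every control ratio, at the closest 0.0638 against 0.0626. The denominator Bhlhe40 was itself called lower, so this separation is not independent of that call. The intervals of the changes of the paralogs overlap, and their difference was not tested.

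Maf and Bhlhe40 moved in opposite directions, so their ratio separated the groups most clearly among the ratios examined. This separation follows from the calls of Maf and Bhlhe40 given above and is not further evidence. The ratio of Maf to Bhlhe40 FPKM was 0.202, 0.204 and 0.213 in control libraries (0.206 ± 0.00600, SD, n = 3) and 0.365, 0.346 and 0.380 in Myα5KO libraries (0.364 ± 0.0170, SD, n = 3).

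**Figure D3:**
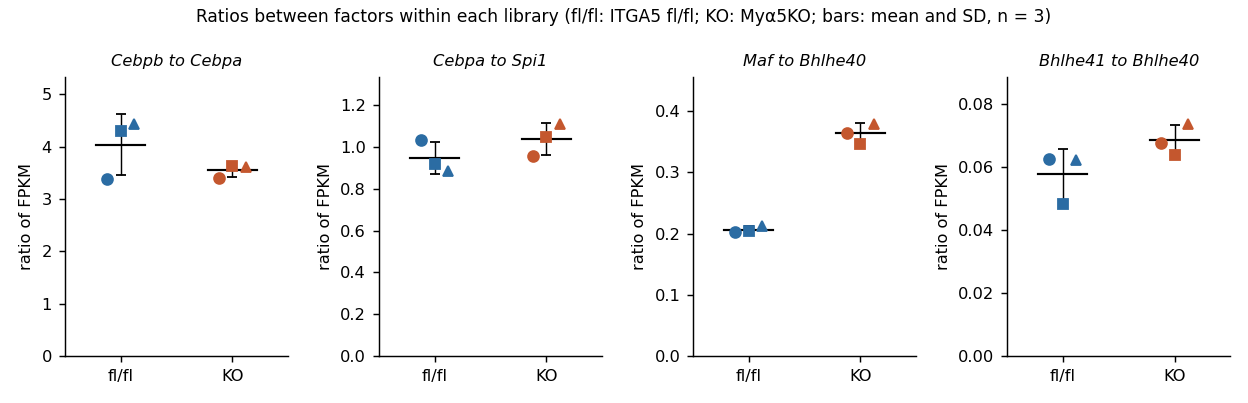
Ratio of the FPKM of one factor to that of another within each library, for 4 pairs, with points for libraries and bars for the mean and SD of each group (n = 3; y axes start at 0). The Maf to Bhlhe40 ratio is near 0.206 in ITGA5 fl/fl and near 0.364 in Myα5KO macrophages. The Bhlhe41 to Bhlhe40 ratio is also higher in every Myα5KO library than in any ITGA5 fl/fl library, by a small margin and with Bhlhe40 itself called lower. The ratios of Cebpb to Cebpa and of Cebpa to Spi1 overlap.

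Mef2c (ENSMUSG00000005583, chr13:83504034-83667080, plus strand) passed the test narrowly. Its levels were 116, 112 and 117 CPM in control (115 ± 2.62, SD, n = 3) and 136, 135 and 128 CPM in Myα5KO libraries (133 ± 4.32, SD, n = 3). All Myα5KO libraries were above all controls. The log2 fold change of 0.21 (SE 0.06, 95% interval 0.08 to 0.34) corresponds to 116% of the control level (edgeR adjusted p = 0.0491). It was the smallest change among the 37 factor genes called higher. The call held under 2 of 17 alternative settings and was lost under 15, with log2 fold changes of 0.18 to 0.29 in the same direction throughout. With DESeq2 the adjusted p was 0.0589 and with limma-voom 0.0543. Leaving out single libraries gave adjusted p-values of 0.0973, 0.195 and 0.120 without ITGA5 fl/fl replicates 1, 2 and 3, and of 0.128, 0.175 and 0.0320 without Myα5KO replicates 1, 2 and 3.

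**Figure D4:**
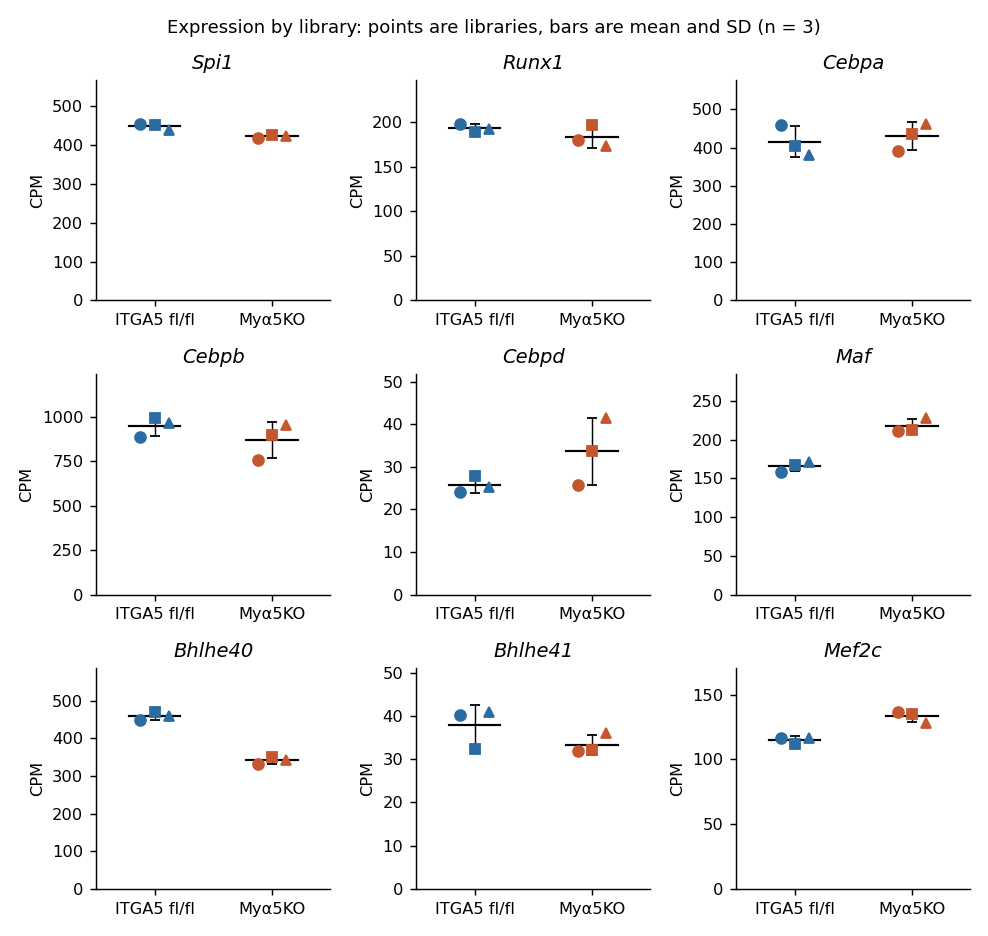
CPM of each factor by group, 1 panel per gene, with points for libraries and bars for the mean and SD (n = 3; y axes start at 0). The groups do not overlap for Spi1, Maf, Bhlhe40 and Mef2c.

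The genes with the most similar profile over the 6 libraries were identified for the 3 called factors, by Pearson's r of log2 CPM among 9325 genes with a mean of at least 100 counts. These values describe 6 libraries that fall into separate groups, and 104 to 209 genes per factor had r over 0.95. For Maf they were Gfm1 (r = 0.9943), Gnpda1 (0.9937) and Capza2 (0.9926). For Bhlhe40 they were Cd274 (0.9967), which encodes the checkpoint ligand PD-L1, Rassf3 (0.9959) and Baiap2 (0.9958). For Mef2c they were Spon1 (0.9992), Ermp1 (0.9912) and Faf2 (0.9902). Cd274 fell from 149, 165 and 164 CPM in control to 85.8, 96.2 and 86.6 CPM in Myα5KO libraries (log2 fold change -0.83, SE 0.07, edgeR adjusted p = 2.81e-05).

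Relatives and binding partners of the 9 factors were examined as a list of 20 genes. Of the 19 tested, 1 was called higher and 4 lower, and the median log2 fold change was -0.06. Over all tested genes, 3.56% were called higher and 5.19% lower, which is the background for this and each following list. The small MAF factors Mafg and Maff, which pair with large MAF or CNC factors, both fell. Mafg had 185, 196 and 205 CPM in control and 132, 149 and 143 CPM in Myα5KO libraries (log2 fold change -0.46, SE 0.07, edgeR adjusted p = 0.00143). Maff had 251, 247 and 257 CPM in control and 165, 193 and 199 CPM in Myα5KO libraries (log2 fold change -0.44, SE 0.08, edgeR adjusted p = 0.00362). Mafk, the remaining small MAF factor, had a log2 fold change of -0.17 (adjusted p = 0.232). The closest relatives of Spi1 moved in opposite directions. Spib, a factor of B cells and plasmacytoid dendritic cells, was higher (0.58, SE 0.16, edgeR adjusted p = 0.0426), and Spic, a factor of iron-recycling macrophages, was lower (-0.50, SE 0.14, adjusted p = 0.0346). Ets2 was lower by the smallest margin (-0.24, SE 0.07, edgeR adjusted p = 0.0475). Leaving out 1 library ended the call of Ets2 in each of the 6 cases, of Spib in 4 (both groups' replicate 1 and ITGA5 fl/fl replicates 2 and 3, adjusted p of 0.0659 to 0.133) and of Spic in 3 (ITGA5 fl/fl replicate 3 and Myα5KO replicates 1 and 3, adjusted p of 0.0916 to 0.171).

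Among 19 other factors of the myeloid lineage, 18 were tested, 4 were called higher and 2 lower, and the median was 0.09. Ikzf1, which encodes the lymphoid and myeloid regulator Ikaros, rose from 96.5, 99.6 and 93.3 CPM to 140.0, 135 and 127 CPM (log2 fold change 0.48, SE 0.06, edgeR adjusted p = 0.000725). Hhex (0.60, adjusted p = 0.0141), the oxysterol receptor gene Nr1h3 (0.31, adjusted p = 0.0492) and Lmo2 (0.25, adjusted p = 0.0408) were also higher in the edgeR test. Id2, an inhibitor of E-protein factors, fell from 557, 537 and 563 CPM to 355, 437 and 445 CPM (log2 fold change -0.42, SE 0.08, edgeR adjusted p = 0.00818), and Etv6 was lower (-0.26, adjusted p = 0.0255). The list count of 6 dropped to 2 without ITGA5 fl/fl replicate 3 and to 3 or 4 without any other library. Ikzf1 and Id2 kept their calls in all 6 such fits, Hhex in 5, Etv6 in 1, and Nr1h3 and Lmo2 in 0.

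Of 20 known target genes of PU.1 and C/EBPα, 1 was called higher and 2 lower, and the median was -0.03. Csf1r, the receptor of the macrophage growth factor CSF-1, had 2301, 2166 and 2098 CPM in control and 2200, 2265 and 1995 CPM in Myα5KO libraries (log2 fold change -0.02, SE 0.08, edgeR adjusted p = 0.894). Fcgr1, the gene of CD64, was higher (0.27, SE 0.06, edgeR adjusted p = 0.0215). Cd14, the lipopolysaccharide co-receptor, was lower (-0.45, SE 0.08, adjusted p = 0.00413), as was the cytokine receptor chain gene Csf2rb (-0.43, SE 0.09, adjusted p = 0.0123). The call of Fcgr1 was lost without any one ITGA5 fl/fl library and without Myα5KO replicate 2 (adjusted p of 0.0571 to 0.108).

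Of 12 known target genes of C/EBPβ and C/EBPδ, 7 were called lower and 1 higher, and the median log2 fold change was -0.42, although neither Cebpb nor Cebpd passed the test. The list holds genes of inflammation and of the acute-phase response, most of which also respond to other factors. Il10, the gene of an anti-inflammatory cytokine, fell from 389.6, 429 and 523 CPM in control to 186, 227 and 204 CPM in Myα5KO libraries (log2 fold change -1.12, SE 0.10, edgeR adjusted p = 5.6e-05). Csf3, the gene of G-CSF, fell from 13.5, 14.0 and 20.9 CPM to 6.39, 8.35 and 8.10 CPM (-1.09, SE 0.17, edgeR adjusted p = 0.00188). Saa3, an acute-phase gene, ranged from 67.6 to 202 CPM in controls and from 33.6 to 61.4 CPM in Myα5KO libraries (-1.42, SE 0.29, edgeR adjusted p = 0.00944). Arg1, a marker of alternative activation, varied between 101, 592 and 291 CPM in control and was at 127, 102 and 95.1 CPM in Myα5KO libraries, with overlapping groups (-1.60, SE 0.40, edgeR adjusted p = 0.0261). When ITGA5 fl/fl replicate 2, the highest library, was left out, the log2 fold change of Arg1 was -0.86 with an adjusted p of 0.116, and its call was also lost without ITGA5 fl/fl replicate 3 (0.0597) and without Myα5KO replicates 2 (0.0644) and 3 (0.0812). The single target called higher was Lcn2, a granulocyte and acute-phase gene, with 2.35, 2.11 and 2.68 CPM in control and 7.67, 3.37 and 10.8 CPM in Myα5KO libraries (1.61, SE 0.33, edgeR adjusted p = 0.00945). Leaving out 1 library at a time left 6 to 8 of the 12 genes called.

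Of 12 macrophage genes that depend on MAF, 1 was called and it was lower, with a median of -0.06. That gene was Il10, which also stands in the preceding list. The complement genes C1qa (-0.06, adjusted p = 0.747), C1qb (-0.04, adjusted p = 0.792) and C1qc (-0.11, adjusted p = 0.415) did not pass the edgeR test, while Maf itself rose. The tissue macrophage genes Cd163 (0.20, adjusted p = 0.388), Folr2 (0.03, adjusted p = 0.886) and Lyve1 (0.04, adjusted p = 0.918) did not pass it either. Timd4, another such gene, was lower without being called (-0.40, edgeR adjusted p = 0.170, unadjusted p = 0.0328). These complement and tissue macrophage genes fall outside the rule for named genes and are examples from the list. Over the whole list, 4 genes lay above and 8 below 0. Il10 and Timd4 were the 2 of the 12 genes with an unadjusted p under 0.05.

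BHLHE40 and BHLHE41 also belong to the circadian feedback loop, in which they repress CLOCK and BMAL1 at E-boxes. Of 16 clock genes, 15 were tested, 2 were called higher and 1 lower, and the median was 0.09. The clock output factor Dbp rose from 4.76, 3.76 and 3.64 CPM to 7.99, 7.22 and 8.94 CPM (log2 fold change 1.00, SE 0.16, edgeR adjusted p = 0.00219). Tef, of the same family, was higher (0.38, SE 0.09, adjusted p = 0.0188), and Rora was lower (-0.37, SE 0.08, edgeR adjusted p = 0.0146). Leaving out ITGA5 fl/fl replicate 2 ended the calls of Tef (adjusted p = 0.0932) and Rora (0.0639), and Tef also lost its call without ITGA5 fl/fl replicate 3 (0.0847) and Myα5KO replicate 3 (0.0558). The hour at which hearts were collected is not given in the sources used here.

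**Figure D5:**
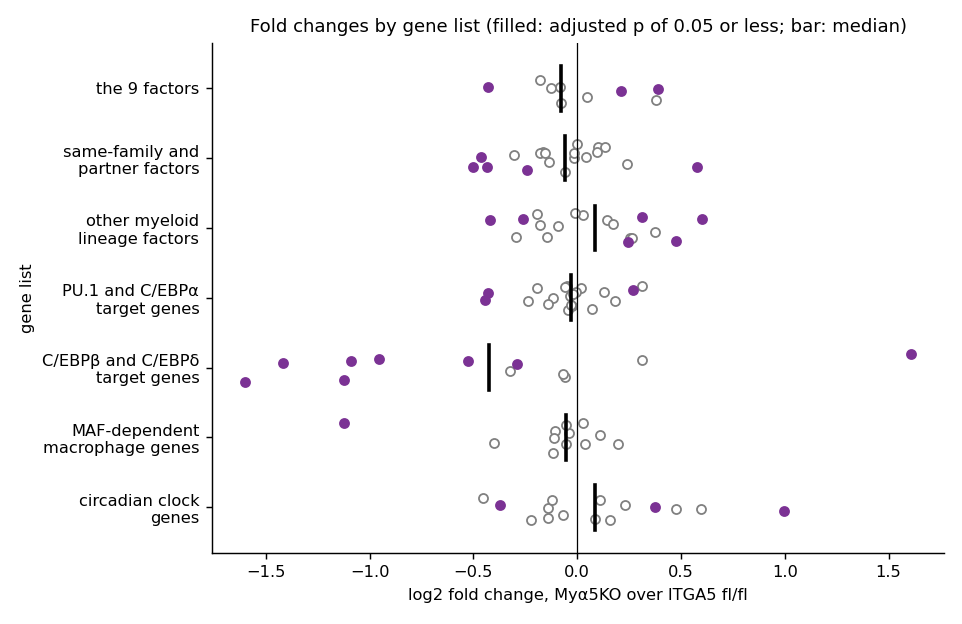
Log2 fold change (Myα5KO over ITGA5 fl/fl) of each tested gene in the list of 9 factors and in 6 related lists, filled where the adjusted p was 0.05 or less, with a black bar at the list median. The median of the C/EBPβ and C/EBPδ targets is -0.42, and those of the other lists lie between -0.08 and 0.09.

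The start sites of the factors were compared with 5 short motifs in the 250 bases upstream. RefSeq promoters on GRCm38.p6 matched 5 of the 9 factors (Cebpa, Cebpb, Bhlhe41, Mef2c and Runx1), with 8 start sites among 32851 in the table. On either strand, the E-box CACGTG recognized by BHLHE40, BHLHE41 and CLOCK was present in 2 of the 8, against 6.02% of all promoters. The matches are shown with 12 bases on either side, the E-box in capitals.

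Bhlhe41, chr6:145865556-145865585, minus strand: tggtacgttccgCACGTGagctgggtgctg
Runx1, chr16:92826128-92826157, minus strand: catcacttaagtCACGTGattggcaagagc

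The Bhlhe41 match lay 153 to 148 bases before the RefSeq start. The Runx1 match lay 71 to 66 bases before the start of the distal promoter, and within the gene bounds given in the deposited table. The RUNX motif TGTGGT (14.0% of all promoters), the C/EBP motif TTGCNNAA (9.56%), the PU.1 motif GAGGAAGT (2.44%) and the MAF motif TGCTGAC (3.81%) had no match in these 8 windows. A match is a description of the letters only.

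As a check of the labels, Itga5 had 9666 to 10536 counts in ITGA5 fl/fl and 895 to 939 counts in Myα5KO libraries (log2 fold change -3.64, SE 0.08, edgeR adjusted p = 4.42e-12). Total counts per library were 15424451 to 18152357 in ITGA5 fl/fl and 18232574 to 18419287 in Myα5KO. Of 10 macrophage markers, Fcgr1 was higher and Lyz2, the gene at which LyzM-Cre is inserted, was lower (log2 fold change -0.92, adjusted p = 4.27e-05), and the summed level was 16335 to 17025 CPM in control and 12984 to 13092 CPM in Myα5KO libraries. Without Lyz2 the other 9 summed to 9262 to 9421 CPM and 8981 to 9396 CPM, and the groups overlapped. The summed level of the 9 monocyte markers was 1343 to 1512 CPM in control and 1794 to 2083 CPM in Myα5KO, with 5 called higher in the edgeR test. Most of this sum was Nr4a1, at 945 to 1091 CPM and 1252 to 1523 CPM, and the other 8 summed to 378 to 456 CPM and 542 to 560.5 CPM. Granulocyte markers summed to 41.5 to 66.3 CPM and 88.6 to 207.8 CPM, with 7 of 9 tested genes higher. Cells bearing Ly6G had been removed with beads, and Ly6g had at most 2 counts in any library and 0 in 3 libraries. B cell markers, with 2 of 8 higher, summed to 78.4 to 121 CPM and 119 to 194 CPM. T and NK cell markers summed to 28.8 to 30.0 CPM and 33.9 to 36.5 CPM, and Cd3d, Cd3e, Cd3g and Cd8a, with at most 10 counts in any library, did not pass the filter. Dendritic cell markers, with 1 of 9 higher, summed to 104 to 142 CPM and 135 to 145 CPM, and endothelial markers, with 1 of 7 higher, to 279 to 308 CPM and 304 to 349 CPM. Fibroblast markers, with 1 of 8 lower, summed to 1620 to 1899 CPM and 1211 to 1579 CPM, and cardiomyocyte markers, with 2 of 8 lower, to 20.4 to 22.5 CPM and 13.4 to 17.5 CPM. With 1 library left out, the number called ranged from 4 to 5 for monocyte, 5 to 8 for granulocyte, 0 to 5 for B cell, 0 to 3 for dendritic cell, 0 to 4 for fibroblast and 1 to 2 for cardiomyocyte markers, and endothelial Kdr lost its call in each case (adjusted p of 0.0696 to 0.182). Beside these marker counts, 3.56% of all tested genes were called higher and 5.19% lower. The part of the marker differences in the changes of Maf, Mef2c, Bhlhe40 and the related lists was not tested.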

How the data were processed

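The authors removed low-quality and adapter reads, aligned the remainder to the mouse genome (mm10, GRCm38.p6 per the submitters' processing notes) with TopHat2 2.0.9 and counted reads per gene with HTSeq 0.6.1. The deposited counts are whole numbers per gene without normalization. The deposited FPKM values equal the count divided by gene length and by a constant proportional to the size factor of the library. Strand and multi-mapped reads are not stated. The table also holds gene positions and factor families.

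Groups and replicate numbers came from the sample titles. Counts were tested with the two-sided quasi-likelihood test of edgeR 4.0.16 (R 4.3.3) with TMM scaling, no covariate and the default filter (minimum count 10, minimum total 15). P-values were adjusted by the Benjamini-Hochberg method over all 14522 genes tested, also where 1 gene is named. Calls required an adjusted p of 0.05 or less. The study names DESeq2. The error of each log2 fold change is its standard error, and CPM are counts scaled by library size and TMM factor. Levels, ratios and list medians are descriptions without a test. No library pair of a group agreed within sampling noise (chi-square per degree of freedom of at least 5.59). Intervals cover 95%. Libraries of 15424451 to 18419287 counts, from reads without molecular identifiers, limit precision by counting error as well as by the spread between hearts.

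The 9 factors, the gene lists and the alternatives were chosen with earlier results of these data known, and the motifs after the values were seen. Named genes are the 9 factors, Itga5, Lyz2, of each list up to 4 called higher and up to 4 called lower with the largest change, the 3 genes most similar to each called factor (mean of at least 100 counts, no predicted or RIKEN symbol), and genes that overlap a factor. Cbfb, Mafk, Csf1r, Ly6g and the genes of T cells were named outside this rule after their values were seen. Marker lists are given by counts and sums. Alternatives were DESeq2 1.42.0, voom in limma 3.58.1, limma on log2(FPKM + 1) and on log2(FPKM + 0.1) where 3 or more libraries reached an FPKM of 1, scaling by library size, upper quartile or median ratio, no filter, a filter of 10 counts per library, a block for the replicate number, omission of single libraries and an adjusted p of 0.01. The test was tested on simulated data for this comparison (14522 genes simulated, 14318 tested). There, 93.2% of 133 changes of 2-fold or above were found, as were 55.2% of 67 smaller ones, with 16 false among 177 calls. The smaller ones were not split by size. Recovery at the size of the Mef2c change (log2 fold change 0.21) was not tested separately. Of the 54532 gene identifiers, 54409 were in the GENCODE M21 annotation. The in vitro and single-cell experiments were not analysed here. One comparison is not reported here.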

Additional observations from a re-analysis of the deposited data

How the results depend on the processing

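Over 17 alternatives, Maf and Bhlhe40 kept direction and call in each, with log2 fold changes of 0.35 to 0.41 and of -0.45 to -0.41 when 1 library was left out. The number of factors called was 3, and 2 to 4 under the alternatives. It was 4 with library-size scaling, where Cebpd joined (log2 fold change 0.46, adjusted p = 0.0460). Mef2c kept its call with library-size scaling and without Myα5KO replicate 3. Cebpd was also called without a count filter (0.39, adjusted p = 0.00154), a setting whose fit shares a single spread over all genes. Spi1, Cebpb and Bhlhe41 kept their direction throughout and were never called. Cebpa changed sign when either replicate 3 was left out (-0.0107 without ITGA5 fl/fl replicate 3, -0.00718 without Myα5KO replicate 3, and up to 0.126 with another library omitted), and Runx1 with library-size scaling (0.00383). The cause was not tested.

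The number of genes called, 1271 (517 higher and 754 lower), was 472 and 448 with limma on log2(FPKM + 1) and log2(FPKM + 0.1), 470 at an adjusted p of 0.01, and 616 to 1091 with 1 library left out. With library-size scaling, 1730 genes were called and 70.1% of them were higher, against 40.7% with TMM, and the median of all genes shifted to 0.095. Without a count filter 1738 were called. Of the 49 genes named and called in the report, 0 reversed under any alternative, 19 kept their call in all and 30 lost it in some.

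Libraries of equal replicate number did not deviate together over all genes. Their deviations from the group means correlated at 0.0518, -0.0749 and 0.0412, against -0.111 to 0.0768 for unequal numbers. A shared effect on a part of the genes need not show in these values. With the replicate block 1181 genes and 2 factors were called, and Mef2c had an adjusted p of 0.0648. With 3 hearts per group, a change of the size of Mef2c lies at the edge of what passed the test. Whether reads were counted by strand is not stated, which limits Cebpb and Cebpd.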
